A study of Mus musculus with 24 samples.

Results

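The genes described here are regulators of the cell cycle and of mitosis, a list of 43 symbols of which 25 act in G1 and S phase and 18 act in mitosis. The list was made from gene symbols, and the measured values were not part of the rule, but its members were chosen with earlier results of these data known. Every probe of the array annotated with a listed symbol was taken, which gave 91 probes for 40 genes of the 19406 genes that could be named. Of these, 58 probes were for 23 G1 and S regulators and 33 probes were for 17 mitotic genes. No probe was named for Ccnb1, E2f4 or E2f8. Each gene is described by its brightest probe, and its other probes are given where they went another way. Heads of (C3H/HeH x 101/H)F1 mouse embryos, with no treatment, were collected at the stages E8.5, E10.5 and E12.5, named for days post coitum (dpc), with 4 embryos at each. Each head was cut along its midline, and total RNA of the left and right sides was hybridized to separate arrays, 24 in all. The labels call these samples brain hemispheres, but they hold the tissues of 1 side of the head, so the RNA is a mixture of cell types. In such RNA fewer cells of a type and less RNA per cell cannot be told apart. Embryos are separate animals, with 4 per stage. The p-values between stages come from a fit to all 24 arrays, with both sides of an embryo linked by a correlation of 0.0893. Both sides thus counted almost as separate samples, and these p-values measure mainly the spread between arrays and not that between embryos. With embryo means in place of single arrays, 53 of the 61 gene results that passed between stages still passed.

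A cell leaves G1 when D-type cyclins with Cdk4 and Cdk6, and then E-type cyclins with Cdk2, phosphorylate the retinoblastoma family of pocket proteins. The pocket proteins then release E2F factors, which drive the genes of DNA replication, while inhibitors of the Cip/Kip and INK4 families hold the kinases back. Later, Cdk1 with A- and B-type cyclins starts mitosis, Polo and Aurora kinases build the spindle, and the checkpoint proteins Bub1, Bub1b, Mad2l1 and Ttk delay Cdc20 until the chromosomes are attached. In the embryonic head, neural progenitors divide in the ventricular layer and leave the cycle as they become neurons.

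Levels are quantile normalized signals, with both sides of an embryo averaged. Fold changes are log2FC of the signal plus a constant, which understates the change of genes with low signal. A probe was above background on an array where its signal passed 3 SD of that array's background, a threshold between 28.6 and 44.1. The brightest probe was above background on all 24 arrays for 28 of the 40 genes, 19 of them G1 and S regulators and 9 mitotic. For 31 genes it was above background on all 8 arrays of at least 1 stage. Among the other 9, E2f5, a repressor E2F, Ccna2 and Ccnb2, the cyclins of Cdk1, Wee1, the kinase that inhibits Cdk1, and Bub1 were above background on no array. For these genes the array gives a bound and not a level. A probe's level was never set against that of another probe.

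The arrays differed in 2 ways. The first principal component of all probes, with 46.5% of the variance, separated the stages. The second, with 27.4%, set apart the right sides of embryos 3 and 4, at −47.2 to −28.4, and those of embryos 1 and 2, at 20.4 to 31.9. The left sides lay between, at 2.22 to 13.1 for embryos 1 and 2 and −1.2 to 5.75 for embryos 3 and 4, and overlapped. These are called the 4 array sets, with 6 arrays each. Each set held 2 arrays of every stage, so that stage comparisons were balanced over the sets. Between sets lay a median of 68.1% of the within-stage variance of the 40 genes, against 56.3% for all named genes. With 2 arrays per set and stage, part of such a share arises even without a set effect, and that part was not estimated. Neuronal markers, as a check of the tissue, had a summed level of 380 to 524 at E8.5, 2785 to 5059 at E10.5 and 14247 to 22363 at E12.5. Markers of neural progenitors summed to 2414 to 3165, 5922 to 9663 and 5622 to 8727, of which Vim alone gave means of 1269, 5015 and 4898, and erythroid markers to 14589 to 58938, 75494 to 91481 and 41077 to 61481. Of 7 erythroid markers measured, 6 were above background on all 8 arrays at E8.5 and E10.5 and 5 at E12.5, and the neuronal marker Dcx was at −0.99 at E8.5.

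Of the G1 and S regulators 13 passed the test in each step, whereas of the mitotic genes 1 passed in the first and 9 in the second. The difference between these lists was not tested. Between E8.5 and E10.5, 10 of the 40 genes rose and 4 fell (LIMMA, adjusted p under 0.05), and all 10 of those that rose were G1 and S regulators. Among all named genes 8.07% rose and 7.76% fell in the same comparison. Between E10.5 and E12.5, 4 rose and 18 fell, and the 18 were divided equally between 9 G1 and S regulators and 9 mitotic genes. Over all named genes, 9.05% rose and 7.3% fell. No mitotic gene rose in either step. The median log2FC of the 23 G1 and S regulators was 0.30 in the first step and −0.29 in the second, and that of the 17 mitotic genes was −0.02 and −0.41. Of the mitotic genes 8 were not above background on all arrays of any stage, against 1 G1 and S regulator. The added constant draws the log2FC of such genes toward 0, so the counts, medians and means of these lists do not compare genes measured equally well. Over all named genes the medians were −0.00 and −0.01. Without the right sides of embryos 3 and 4, 16 genes passed in the first step and 28 in the second, in either direction, against 21.9% and 22% of all named genes.

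Embryo values separated in the same places. The 4 embryos at E10.5 all lay above the 4 at E8.5 for 10 genes and below them for 4, against 9.29% and 8.62% of all named genes. In the second step the stages did not overlap for 3 genes that were higher and 18 that were lower, against 8.85% and 8.27%. Of the 22 genes that passed the test in the second step, 21 had stages that did not overlap, and Cdkn1b was the exception. All 14 genes that passed in the first step and all 22 in the second had the same direction in each of the 4 array sets. The sets are parts of the arrays that gave these calls, so this is not a separate test.

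The second step depended on the scaling of the arrays. With arrays scaled to a common median in place of quantile normalization, 5 genes rose and 8 fell, 3 of them G1 and S regulators and 5 mitotic, and 8.17% and 2.59% of all named genes rose and fell. Either scaling holds the median log2FC of all probes near 0 by design, here between −0.01 and 0.01. That median therefore cannot show whether most genes shifted together. The genes that no longer passed in the second step were Ccne2, Cdk2, Rbl1, E2f2, E2f7, Tfdp1, Cdk1, Ttk, Top2a and Mki67, with adjusted p between 0.0515 for Mki67 and 0.471 for Tfdp1. In the first step Ccnd1, Ccnd2, Cdkn2d and E2f3 no longer passed (adjusted p = 0.0643, 0.137, 0.0531 and 0.222). No gene that passed changed its direction.

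**Figure D1:**
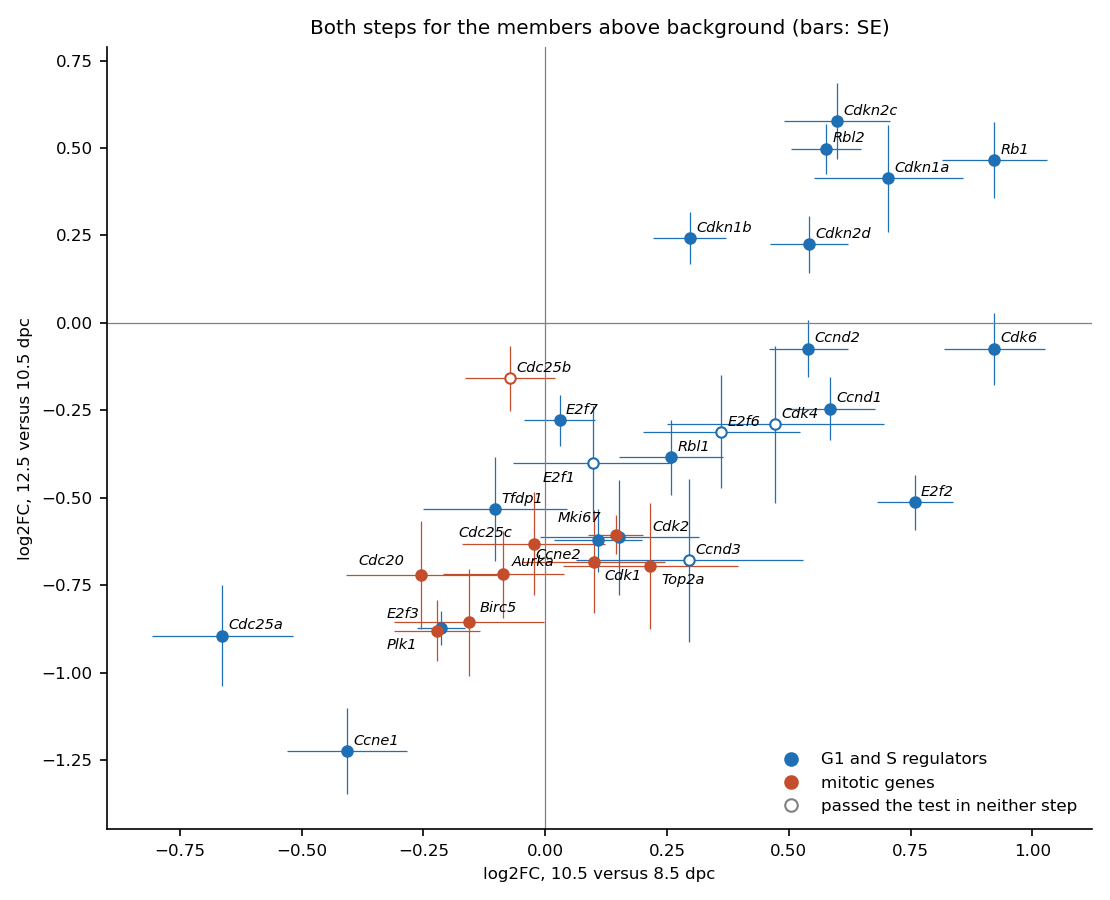
Each point is a gene above background on all 8 arrays of at least 1 stage, with its log2FC from E8.5 to E10.5 on the horizontal axis, from E10.5 to E12.5 on the vertical axis, and bars of the SE. The mitotic genes (red) lie near 0 across and below 0 down the plot, while the G1 and S regulators (blue) spread from Ccne1 and Cdc25a at the lower left to Rb1, Cdkn2c and Rbl2 at the upper right.

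The windows of 250 bases before the annotated start are shown for genes that lay at opposite ends of these courses or stood for the common fall, with matches to 3 motifs known from cell cycle promoters. Sequences were taken from RefSeq on GRCm38.p6, where 31 of the 43 genes matched, with 37 windows. The motifs were TTTNNCGC, TTTGAA, the core of the cell cycle homology region (CHR), and CCAAT, each searched on both strands. TTTNNCGC is a loose form of the E2F site with any base at N, so some of its matches may not be E2F sites. Matches of different motifs did not overlap in these windows. Capitals mark the matches, a match on the other strand reads ATTGG or TTCAAA, and all are written 5′ to 3′ along the gene's own strand. Cdc25a, at chr9:109875329-109875578 on the plus strand, is shown as a G1 and S gene that fell in both steps.
Cdc25a: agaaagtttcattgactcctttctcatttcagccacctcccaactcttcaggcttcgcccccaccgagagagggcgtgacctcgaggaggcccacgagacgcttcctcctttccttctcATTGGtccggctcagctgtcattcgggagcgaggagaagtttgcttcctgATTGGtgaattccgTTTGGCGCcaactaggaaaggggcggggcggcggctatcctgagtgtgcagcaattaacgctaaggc
Cdk1, at chr10:69352913-69353162 on the minus strand, Cdc20, at chr4:118437344-118437593 on the minus strand, and Top2a, at chr11:99024190-99024439 on the minus strand, are shown as mitotic genes that fell in the second step alone.
Cdk1: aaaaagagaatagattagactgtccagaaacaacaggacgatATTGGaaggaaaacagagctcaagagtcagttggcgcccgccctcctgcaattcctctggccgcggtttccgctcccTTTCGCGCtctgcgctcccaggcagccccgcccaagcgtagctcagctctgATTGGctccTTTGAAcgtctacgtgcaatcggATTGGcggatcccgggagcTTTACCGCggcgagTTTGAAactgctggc
Cdc20: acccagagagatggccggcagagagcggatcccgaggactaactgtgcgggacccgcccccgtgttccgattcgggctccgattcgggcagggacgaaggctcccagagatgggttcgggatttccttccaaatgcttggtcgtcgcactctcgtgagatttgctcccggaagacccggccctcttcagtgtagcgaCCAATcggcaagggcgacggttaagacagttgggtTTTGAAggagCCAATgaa
Top2a: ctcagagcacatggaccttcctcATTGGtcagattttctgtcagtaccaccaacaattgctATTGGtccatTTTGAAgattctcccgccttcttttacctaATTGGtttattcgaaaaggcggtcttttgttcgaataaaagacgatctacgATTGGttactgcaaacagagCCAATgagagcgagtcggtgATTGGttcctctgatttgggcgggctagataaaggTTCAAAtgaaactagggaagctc
Rbl2, at chr8:91069807-91070056 on the plus strand, is shown as a gene that rose in both steps.
Rbl2: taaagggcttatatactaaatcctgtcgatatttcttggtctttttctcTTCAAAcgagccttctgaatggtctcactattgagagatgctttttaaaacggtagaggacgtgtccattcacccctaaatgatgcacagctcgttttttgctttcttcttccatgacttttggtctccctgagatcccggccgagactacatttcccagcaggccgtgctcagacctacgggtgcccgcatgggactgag

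The loose E2F pattern was found in the windows of 7 G1 and S regulators, Cdc25a, Cdk2, Cdk6, E2f3, E2f7, Rbl1 and Tfdp1, and of 1 mitotic gene, Cdk1. That was 33.3% of the G1 and S windows and 7.69% of the mitotic windows, against 4.28% of all 32851 windows of the same length. Of those 7, Cdk6, whose match read TTTTACGC, rose in the first step and the others fell in at least 1 step. The CHR was found in 3 of 24 G1 and S windows, in 38.5% of the mitotic windows and in 16% of all windows. The mitotic genes with it were Ccnb2, Cdc20, Cdk1, Mki67 and Top2a. The CCAAT box was in 37.5% of the G1 and S windows and in 84.6% of the mitotic windows, which belonged to 11 of 13 genes, against 33.8% of all. These are matches of letters, and binding was not measured.

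Among the D-type cyclins and their kinases, which receive the signals that start G1, the first step raised Cdk6, Ccnd1 and Ccnd2. Cdk6 stood at 185, 128, 193 and 203 in embryos 1 to 4 at E8.5, at 506, 302, 486 and 497 at E10.5, and at 459, 369, 379 and 445 at E12.5. The stages did not overlap between E8.5 and E10.5, and Cdk6 rose with a log2FC of 0.92 (SE 0.103, adjusted p = 6.86e-07) and did not pass in the second step (−0.07, adjusted p = 0.834). Its value came from a probe without a transcript accession, and its other probe, for NM_009873, was dim with stage means of 31.4, 43.3 and 30.7. Ccnd1, cyclin D1, stood at 5041, 5677, 5383 and 6269, then at 7618, 8604, 8568 and 8968, and at 5730, 7490, 7277 and 8031 at E12.5. It rose without overlap by a log2FC of 0.59 (SE 0.091, adjusted p = 6.03e-05). Its later difference of −0.24 did not pass (adjusted p = 0.104), but passed with the replicate block (adjusted p = 0.0058), and at E12.5 embryo 1 lay within the range of E8.5. Its dimmer probes included 2 that fell in the second step (log2FC −0.48 and −0.76, adjusted p = 0.00133 and 0.00775).

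Ccnd2, cyclin D2, had stage means of 5151 ± 430, 7534 ± 648 and 7159 ± 542 (SD, n = 4), and rose in the first step by a log2FC of 0.54 (SE 0.081, adjusted p = 3.69e-05). The probes of Ccnd2 disagreed. A second probe for its RefSeq transcript also rose (0.75, adjusted p = 1.68e-06), whereas a probe for the cDNA AK077367 stood at 217, 221, 178 and 224 at E8.5 and at 112, 73.4, 99.1 and 104 at E10.5. That probe fell (log2FC −0.61, adjusted p = 6.42e-07), and Ccnd2 was the 1 gene of 29 with several probes whose probes passed in opposite directions in the same step. Ccnd3, cyclin D3, did not pass in either step, with means of 212 ± 127, 269 ± 46.1 and 129 ± 84.3 (SD, n = 4). With the replicate block its second difference of −0.68 passed (adjusted p = 0.00392, against 0.0703 without).

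Cdk4, the main partner of cyclin D in most tissues, had means of 2776 ± 1102, 3696 ± 392 and 3079 ± 875 (SD, n = 4), with embryos from 1481 to 3959 at E8.5. Its log2FC of 0.47 in the first step did not pass (adjusted p = 0.252), and passed with the replicate block (adjusted p = 0.0379). A second Cdk4 probe went the other way. It stood at 1286, 1231, 1148 and 1270, then at 904, 893, 1014 and 868, and then at 615, 597, 702 and 869, and fell in both steps (log2FC −0.38 and −0.36, adjusted p = 0.00184 and 0.00355). The direction of Cdk4 was therefore not settled by these probes.

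Of the inhibitors of cyclin-dependent kinases, all 4 on the list rose in the first step. Cdkn2c, p18 of the INK4 family, which blocks Cdk4 and Cdk6, stood at 81.7, 81.1, 97.7 and 121 at E8.5, at 144, 215, 254 and 219 at E10.5 and at 378, 278, 399 and 416 at E12.5. No stage overlapped with the next, and the log2FC was 0.60 and then 0.58 (SE 0.109 each, adjusted p = 0.000393 and 0.000564). Cdkn2d, p19 of the same family, stood at 66, 80.9, 76 and 74.5, then at 160, 207, 152 and 139, and then at 246, 232, 166 and 207. It rose in the first step without overlap (0.54, SE 0.081, adjusted p = 3.55e-05). The second step of 0.22 did not pass (adjusted p = 0.0883) but passed with the replicate block (adjusted p = 0.0248).

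Cdkn1a, p21 of the Cip/Kip family, stood at 4.05, 10.3, 34.7 and 24.8 at E8.5, where it was above background on 0 of 8 arrays. At E10.5 it stood at 65, 105, 125 and 140 and at E12.5 at 168, 109, 256 and 234, above background on all 8 arrays of both stages. The rise was at least 2.44-fold in the first step (log2FC 0.70, SE 0.153, adjusted p = 0.00243), where the bound compares the mean of the brighter stage with the lowest signal above background on the arrays of the dimmer stage. The second step of 0.41, in which embryo 2 at E12.5 lay within the range of E10.5, did not pass (adjusted p = 0.103) but passed with the replicate block (adjusted p = 0.0209). The second Cdkn1a probe rose in both steps (0.53 and 0.38, adjusted p = 2.64e-08 and 2.47e-06). Cdkn1b, p27 of the same family, was above background on 0, 5 and 8 arrays at the 3 stages, with means of 8.92, 39 and 68.1. It rose in both steps (0.30 and 0.24, adjusted p = 0.00879 and 0.0373). The second of these was lost without any of embryos 2 and 4 at E8.5, 1 and 3 at E10.5, or 1, 3 and 4 at E12.5 (adjusted p from 0.0515 to 0.162), and without the right sides of embryos 3 and 4 (adjusted p = 0.0888).

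Of the pocket proteins, Rb1 and Rbl2 rose in both steps and Rbl1 did not. Rb1, the retinoblastoma protein, stood at 159, 156, 214 and 250 at E8.5, at 338, 511, 553 and 512 at E10.5 and at 749, 593, 720 and 737 at E12.5. Its log2FC was 0.92 (SE 0.108, adjusted p = 1.46e-06) and then 0.47 (adjusted p = 0.00443), with no overlap in either step. Rbl2, p130, which is typical of resting cells, stood at 91.2, 106, 95 and 104, then at 161, 194, 237 and 241, and then at 347, 310, 322 and 395. Each stage lay wholly above the one before, with a log2FC of 0.58 and 0.50 (SE 0.071 each, adjusted p = 2.96e-06 and 1.94e-05). Rbl1, p107, which is typical of dividing cells, had means of 261 ± 63.9, 330 ± 5.61 and 227 ± 45.6 (SD, n = 4). It fell in the second step (log2FC −0.38, adjusted p = 0.0198), a call that was lost without embryo 1 or 3 at E10.5 or embryo 1 or 2 at E12.5 (adjusted p from 0.0538 to 0.0917). Its brightest probe was for the cDNA AK033402 and not for a RefSeq transcript. A dimmer Rbl1 probe, for the RefSeq transcript, went another way. It stood at 35.1, 43.7, 10.7 and 21.9 at E8.5 and at 131, 165, 61.2 and 61 at E10.5. At E12.5 it stood at 89.2, 113, 49.5 and 44.9, so that both later stages lay above E8.5. That probe did not pass in either step or from E8.5 to E12.5.

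The regulators of the G1 to S transition fell. Ccne1, cyclin E1, stood at 822, 850, 942 and 879 at E8.5, at 675, 454, 701 and 717 at E10.5 and at 121, 198, 276 and 225 at E12.5. No stage overlapped with the next. The first fall of 0.41 (SE 0.122, adjusted p = 0.0316) did not pass without any 1 of the embryos at E8.5 (adjusted p from 0.053 to 0.101) or without embryo 2 at E10.5 (log2FC −0.28, adjusted p = 0.175), which was the lowest at its stage. The second, with a log2FC of −1.22 (SE 0.122, adjusted p = 1.15e-07), kept its direction in all 4 array sets. Cdc25a, the phosphatase that activates Cdk2, stood at 867, 742, 950 and 994, then at 511, 380, 572 and 644, and then at 170, 172, 306 and 268. It fell in both steps without overlap (log2FC −0.66 and −0.89, SE 0.144 each, adjusted p = 0.00245 and 9.09e-05).

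Ccne2, cyclin E2, and Cdk2, the kinase of both E cyclins, did not pass in the first step and fell in the second. Ccne2 had means of 248 ± 62.5, 274 ± 39.5 and 135 ± 14.1 (SD, n = 4; log2FC −0.62, adjusted p = 2.49e-05). Cdk2 had means of 1095 ± 256, 1206 ± 102 and 769 ± 242 (SD, n = 4; log2FC −0.61, adjusted p = 0.0141), and did not pass without embryo 4 at E10.5 or embryo 1 at E12.5 (adjusted p = 0.0556 and 0.0845). For Cdk2, 1 of 4 probes fell, and for Ccne1 both probes did.

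The E2F factors took separate courses. E2f2, an activator, stood at 258, 256, 254 and 298 at E8.5, at 486, 546, 553 and 569 at E10.5 and at 298, 331, 379 and 352 at E12.5. It rose by a log2FC of 0.76 (SE 0.078, adjusted p = 1.97e-07) and fell by 0.51 (adjusted p = 4.09e-05), without overlap either time, and was the 1 gene of the 40 that passed in both steps with opposite signs, a course taken by 0.964% of all named genes. E2f3, another activator, stood at 310, 325, 328 and 319, then at 303, 238, 260 and 242, and then at 72.9, 96.4, 97.4 and 85. It fell by 0.21 and then by 0.87 (SE 0.049 each, adjusted p = 0.00362 and 1.92e-11), and no embryo of a stage reached the range of the stage before. E2f1, the third activator, did not pass in either step, with means of 584 ± 136, 630 ± 85.7 and 456 ± 79.5 (SD, n = 4). With the replicate block its second difference of −0.40 passed (adjusted p = 0.0209, against 0.154).

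Of the repressor E2Fs, E2f7 was dim, at 60.5 ± 15, 64.3 ± 16.8 and 31.8 ± 12.6 (SD, n = 4), and above background on 7, 8 and 3 of 8 arrays. It fell in the second step (log2FC −0.28, adjusted p = 0.0124), a call lost without embryo 3 or 4 at E10.5 or embryo 1 at E12.5 (adjusted p from 0.0514 to 0.0835). E2f6 had a log2FC of 0.36 and then −0.31, which did not pass (adjusted p = 0.21 and 0.321), although the first passed with the replicate block (adjusted p = 0.04). Tfdp1, a partner with which many E2Fs bind DNA, had means of 377 ± 47.9, 349 ± 81.6 and 201 ± 20.9 (SD, n = 4) and fell in the second step (log2FC −0.53, adjusted p = 0.0188). That call was lost without embryo 1 or 2 at E10.5 or embryo 1 or 4 at E12.5 (adjusted p from 0.0528 to 0.0846).

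**Figure D2:**
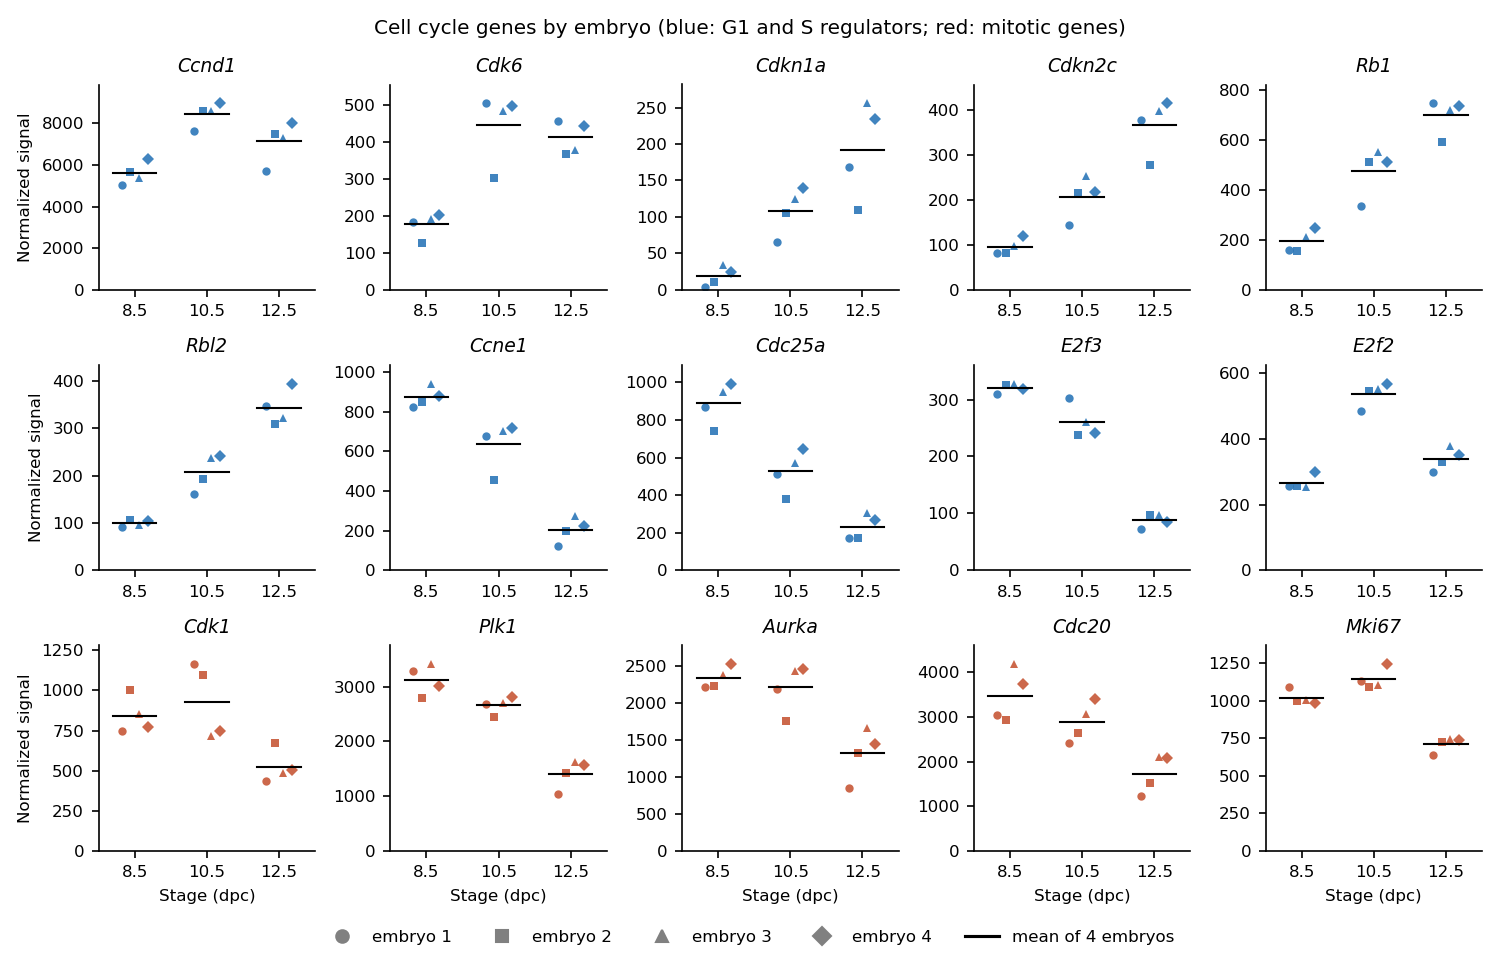
Normalized signal of selected genes in each embryo by stage in dpc, with both sides averaged, and with symbols for embryos 1 to 4 and bars for the mean of the 4 embryos of a stage. Rb1, Rbl2 and Cdkn2c climb at every stage, Ccne1, Cdc25a and E2f3 fall at every stage, E2f2 peaks at E10.5, and the mitotic genes in the bottom panels drop at E12.5.

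Between E8.5 and E10.5 the mitotic genes ranged from a log2FC of −0.25 for Cdc20 to 0.22 for Top2a. The 1 gene that passed was Wee1, which was below background at both stages and is given no fold. Its signals were 16.3, 12, 4.6 and 16 at E8.5 and −7.17, −0.36, −0.85 and −5.58 at E10.5, on a probe for the cDNA AK019069. In the second step all 17 had a log2FC under 0, from −0.88 for Plk1 to −0.01, and 9 passed. These were the kinases Cdk1, Plk1, Aurka and Ttk, the phosphatase Cdc25c, the activator of the anaphase-promoting complex Cdc20, topoisomerase II alpha (Top2a), the proliferation antigen Mki67 and survivin (Birc5). Not passing in the first step and falling in the second was the course of 9 mitotic genes and 5 G1 and S regulators, and of 4.12% of all named genes.

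Plk1, the Polo kinase that drives entry into mitosis, stood at 3281, 2799, 3413 and 3006 at E8.5, at 2681, 2440, 2699 and 2810 at E10.5 and at 1034, 1423, 1614 and 1568 at E12.5. The last stage lay wholly apart, and Plk1 fell by a log2FC of 0.88 (SE 0.088, adjusted p = 1.27e-07). Aurka, the Aurora kinase of the spindle poles, stood at 2213, 2230, 2383 and 2531, then at 2186, 1765, 2435 and 2467, and then at 849, 1322, 1668 and 1449. Its first 2 stages overlapped and the third lay below both (log2FC −0.72, SE 0.125, adjusted p = 0.000213).

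Cdc20 stood at 3033, 2935, 4187 and 3738 at E8.5, at 2416, 2642, 3075 and 3404 at E10.5 and at 1216, 1526, 2097 and 2075 at E12.5. It fell in the second step by a log2FC of 0.72 (SE 0.155, adjusted p = 0.00216), as did all 3 of its probes. Birc5, a subunit of the chromosomal passenger complex, stood at 3406, 4001, 4811 and 5036, then at 3321, 3353, 4366 and 4299, and then at 1360, 1890, 2725 and 2524. Its fall of 0.86 (SE 0.153, adjusted p = 0.000302) was seen on 3 of 3 probes, with no overlap between E10.5 and E12.5.

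Top2a, which untangles sister chromatids, stood at 740, 848, 906 and 626 at E8.5, at 1091, 984, 715 and 879 at E10.5 and at 422, 662, 551 and 447 at E12.5. It fell in the second step (log2FC −0.69, SE 0.18, adjusted p = 0.0112), although the highest embryo at E12.5 came within the range of E8.5. In the first step 2 dimmer Top2a probes, for the cDNAs AK028218 and AK082477, fell (log2FC −0.57 and −0.33, adjusted p = 0.00606 and 0.000121), where the brightest probe had 0.22 (adjusted p = 0.628). Mki67 had means of 1018 ± 49.4, 1143 ± 70.2 and 710 ± 50.2 (SD, n = 4) and fell (log2FC −0.60, SE 0.056, adjusted p = 3.42e-08).

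Cdk1, the kinase of mitotic entry, had means of 842 ± 115, 931 ± 234 and 523 ± 103 (SD, n = 4; log2FC −0.68, adjusted p = 0.00219 in the second step). Cdc25c, the phosphatase that activates Cdk1, had means of 756 ± 69, 752 ± 163 and 447 ± 122 (SD, n = 4; log2FC −0.63, adjusted p = 0.00453). Cdc25b, a related phosphatase, had means of 148 ± 26.2, 135 ± 20.4 and 109 ± 28 (SD, n = 4) and did not pass in either step (log2FC −0.07 and −0.16). Ttk, a checkpoint kinase, was above background on 1, 4 and 0 arrays and is given no fold, and its second step was lost without embryo 2 at E10.5 (adjusted p = 0.0585, against 0.0139). Its first step, not called (adjusted p = 0.0794), passed with the replicate block (adjusted p = 0.0272). Mad2l1, another checkpoint protein, was above background on 1, 2 and 1 arrays, and Ccna2, Ccnb2 and Bub1 on none, and none of these passed in either step.

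Aurkb, the kinase of the chromosomal passenger complex, and Bub1b, a subunit of the spindle checkpoint, did not pass in either step. Their means at the 3 stages were 158 ± 74.2, 159 ± 96.6 and 77.6 ± 41.2 for Aurkb and 222 ± 97.1, 175 ± 68.4 and 96.2 ± 36 for Bub1b (SD, n = 4). Between the array sets lay 96.8% of the within-stage variance of Aurkb and 97.7% of that of Bub1b. E2f6, Mad2l1 and Cdc25c followed with 93.9%, 93.2% and 91.5%. On the right sides of embryos 3 and 4 Aurkb was above background on 0 arrays, with set means of 11.1, −3.73 and −2.45 at the 3 stages. On the right sides of embryos 1 and 2 it stood at 319, 319 and 145, on the left sides of embryos 1 and 2 at 123, 164 and 73.8, and on the left sides of embryos 3 and 4 at 178, 155 and 94.1. All 3 sets with signal were lower at E12.5 than at E10.5. Bub1b ran from 291 to 139 and from 25.8 to 15.2 between those stages in the same 2 right-side sets. Leaving out the right sides of embryos 3 and 4, Aurkb (log2FC −0.54, adjusted p = 0.000516) and Bub1b (−0.49, adjusted p = 2.78e-05) fell in the second step. Those arrays, on which both genes lay near 0, were left out after seeing the data, so these calls are not a separate test.

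With the array set as a block, the first step raised 14 of the 40 genes and lowered 6, and the second raised 6 and lowered 25. In this fit the first step raised 12.7% and lowered 12.4% of all named genes, and the second 12.4% and 13.9%. Among the genes it added were Cdk4, Rbl1 and E2f6, higher in the first step (adjusted p = 0.0372, 0.00551 and 1.4e-05), and Plk1 and Cdc20, lower in it (adjusted p = 0.0397 and 0.00994). In the second step the genes added as lower included Ccnd3, E2f1, E2f6, Aurkb and Bub1b (adjusted p = 0.00329, 0.000336, 8.73e-05, 0.00201 and 0.000242). Those added as higher were Cdkn1a and Cdkn2d (adjusted p = 0.00164 and 0.00681). With this block 3 mitotic genes fell in the first step and 12 in the second, while Mki67 rose in the first (adjusted p = 0.0412).

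**Figure D3:**
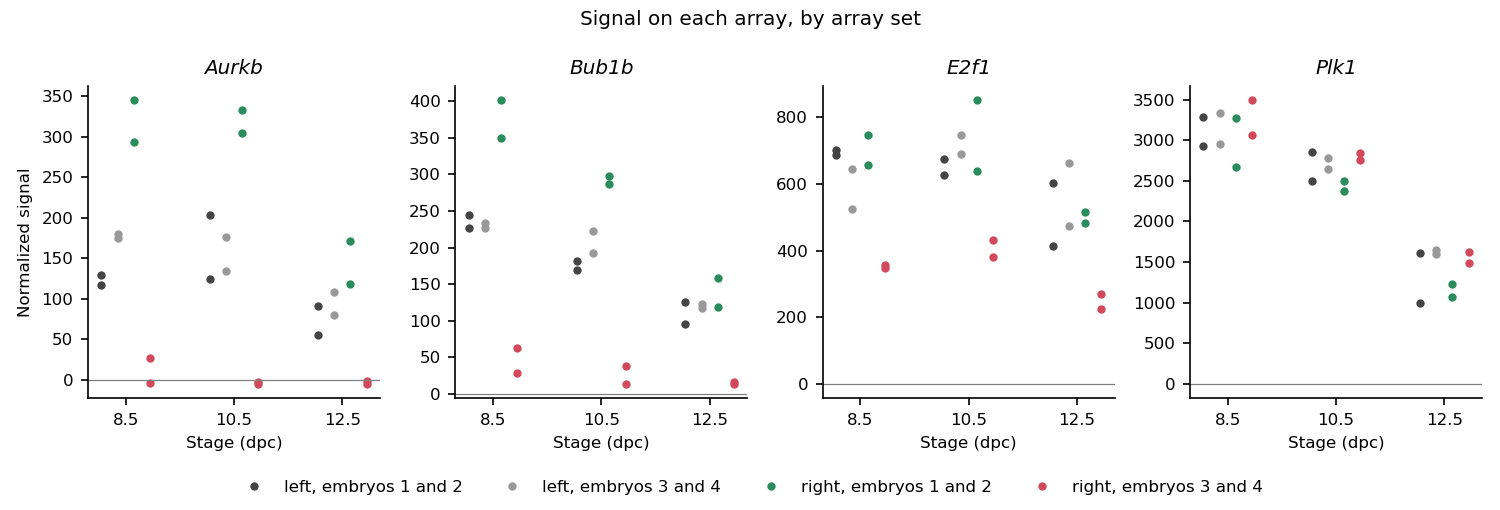
Normalized signal of Aurkb, Bub1b, E2f1 and Plk1 on each array by stage in dpc, with colours for the 4 array sets. For Aurkb and Bub1b the right sides of embryos 3 and 4 (red) lie near 0 at every stage, whereas for Plk1 the sets lie together and fall together at E12.5.

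Further genes of the pathway were taken from 3 lists. Of the E2F target genes of DNA replication, 15 of 16 were measured, and 11 fell and 0 rose in the second step (median log2FC −0.86), against 7.3% and 9.05% of all named genes. Those with the largest changes were Rrm2 (−1.07), a subunit of ribonucleotide reductase, and Mcm2, Mcm6 and Mcm7 (−1.02, −0.98 and −0.96) of the replicative helicase. In the first step Rrm2 rose (0.40), and Mcm5 and Ung, a DNA repair glycosylase, fell (−0.36 and −0.34). Of the other mitotic genes, 43 of 45 were measured, and 23 fell and 0 rose in the second step (median −0.31), led by Incenp (−0.87), Spc24 (−0.77), Cdca2 (−0.74) and Cdca8 (−0.70). In the first step Prc1, Kif4 and Nuf2 rose by 0.23, 0.18 and 0.18, and Ccnf and Cdca2 fell (−0.43 and −0.42).

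Of the other G1 and growth control genes, 22 of 24 were measured. In the first step 3 rose, Cdkn1c (0.99), Ccng1 (0.52) and Tfdp2 (0.46), and 2 fell, Myc and Cdk7, against 8.07% and 7.76% of all named genes. Both that fell were dim, Myc above background on 4, 0 and 0 arrays at the 3 stages and Cdk7 on 1, 0 and 0, and are given no fold. Cdkn1c, p57 of the Cip/Kip family, had means of 7770 ± 1281, 15637 ± 2892 and 21263 ± 3752 (SD, n = 4), and rose again in the second step (0.45, adjusted p = 0.025). Mnat1 (−0.52) and Tfdp2 (−0.41) fell in that step, and the median of the list was −0.00.

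The mean over the list in each embryo, relative to E8.5, was 0.252 to 0.33 on the log2 scale at E10.5 and −0.0566 to 0.147 at E12.5 for the G1 and S regulators. For the mitotic genes it was −0.0839 to 0.00519 and then −0.606 to −0.404, and for the E2F target genes −0.941 to −0.646 at E12.5. Over the same stages 7 of 10 neuronal markers rose in each step, and of 10 progenitor markers 4 rose (Vim, Nes, Hes5 and the dim Fabp7) and Msi1 fell in the first step, and Hes5 fell in the second. Sox2, Sox3, Pax6 and Notch1 passed in neither step, nor did the neuronal markers Tubb3, Elavl4 and Gap43. Of 7 erythroid markers, 4 rose in the first step and 5 fell in the second. The part of such shifts in cell types in the changes of the cell cycle genes was not tested.

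**Figure D4:**
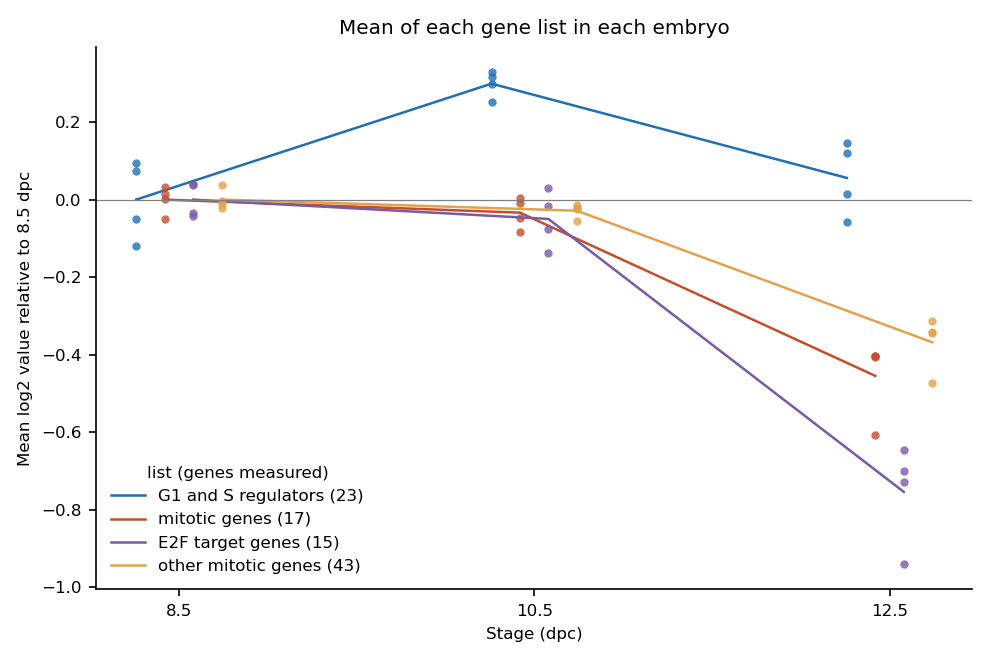
Mean log2 value of each gene list in each embryo, relative to the mean of that list at E8.5, by stage in dpc, with points for embryos (shifted sideways per list) and lines through the stage means. The G1 and S regulators lie at 0.252 to 0.33 at E10.5, and the mitotic genes, other mitotic genes and E2F target genes all lie below the earlier stages at E12.5.

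From E8.5 to E12.5 10 of the 40 genes rose and 15 fell, against 14.7% and 14.9% of all named genes. All 10 that rose were G1 and S regulators, and of the 15 that fell 7 were G1 and S regulators and 8 were mitotic. On the scale with the added constant, the largest rises were in Rb1 (log2FC 1.39, adjusted p = 5.41e-10), Cdkn2c (1.18, adjusted p = 9.77e-09), Cdkn1a (1.12, at least 4.17-fold, adjusted p = 4.06e-06) and Rbl2 (1.07, adjusted p = 3.48e-11). Cdkn1b rose at least 1.58-fold (log2FC 0.54, adjusted p = 4.68e-06). The largest falls were in Ccne1 (−1.63, adjusted p = 2.73e-10), Cdc25a (−1.56, adjusted p = 9.71e-09), Plk1 (−1.10, adjusted p = 8.86e-10), E2f3 (−1.09, adjusted p = 3.97e-14) and Birc5 (−1.01, adjusted p = 1.56e-05). The net change of Top2a did not pass (−0.48, adjusted p = 0.065), but passed with the replicate block (adjusted p = 0.0261), as did Cdc25b (adjusted p = 0.0169) and Bub1b (adjusted p = 0.0237). Those of Cdk2 and E2f7 (−0.46 and −0.25, adjusted p = 0.0487 and 0.0151) were lost without embryo 1 at E12.5 (adjusted p = 0.228 and 0.0907), and that of E2f2 (0.25, adjusted p = 0.0248) without embryo 3 at E12.5 (adjusted p = 0.0849), among other embryos. With median scaling the net changes of Ccnd1, Ccnd2, Ccne2, Cdk2, E2f2, Tfdp1 and Cdk1 did not pass (adjusted p from 0.065 to 0.681).

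Left and right sides were compared within embryos. Of the 40 genes 0 passed (LIMMA with the embryo as a block, smallest adjusted p = 0.296), as did 0% of all named genes, and 9 had an unadjusted p under 0.05, or 5 by the exact sign-flip permutation test over 12 embryos. Differences, right minus left, ran from −0.33 for E2f1 to 0.24 for Cdk4 on the log2 scale. For 32 of the 40 genes the mean difference had opposite signs in embryos 1 and 2 and in embryos 3 and 4, which is the division between the array sets. The shares of all named genes with such signs, or with an unadjusted p under 0.05, are not given here. Within either pair of embryos side and array set cannot be told apart: 15 of the 40 genes passed in embryos 1 and 2 alone and 23 in embryos 3 and 4 alone, against 13.7% and 28.4% of all named genes. Mki67 was higher on the right in 2 of 12 embryos, with a mean right minus left of −0.18 (exact sign-flip permutation test, two-sided, unadjusted p = 0.00195, LIMMA adjusted p = 0.296). Aurka was higher on the right in 10 of 12, by 0.18 (unadjusted p = 0.0103 by the same exact test, LIMMA adjusted p = 0.373). The change between stages did not differ between the sides for any of the 40 genes at an adjusted p under 0.05 (moderated F of the interaction, 1 gene with an unadjusted p under 0.05).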

How the data were processed

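Total RNA of the left and right sides of 12 heads was hybridized to Illumina mouse WG-6 arrays. The authors deposited linear probe intensities after background subtraction but before quantile normalization, made with BeadStudio according to the study and GenomeStudio according to the submitters' processing notes. Mean intensity per array was 149.1 to 323.2, and the number of arrays limits the precision. A constant of 119.5 was added (lowest value then 16), and arrays were quantile normalized and log2 transformed. Stages were compared over all 46643 probes with limma 3.58.1 (R 4.3.3, statmod 1.5.0), with stage and side fixed and embryo as a random block (correlation 0.0893). Genes rose or fell at a Benjamini-Hochberg adjusted p under 0.05. The fits were run on simulated data with independent noise on each array. That simulation held no embryo or array set effects, so it cannot show how the tests behave with them. Symbols came from the platform annotation: 32794 probes had 1 symbol, 55 several and 13794 none, and 32722 matched the reference table. A table with 72 columns tied to no sample was not used.

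Members and lists were chosen with earlier results of these data known. Embryo values are given for up to 8 genes per step and direction with the largest log2FC among those that passed without overlap, and of each further list up to 4 genes that passed and those that passed the opposite way. Embryo numbers come from sample titles, and same-numbered samples deviated together across stages (correlations 0.302 to 0.699, 12 of 12 pairs above 0.1). Differently numbered samples within embryos 1 and 2 or within 3 and 4 did so as much (0.34 to 0.752), and those across these pairs did not (−0.717 to −0.329), so the correlation follows the pair of embryos and not the single number. A fit with the replicate block is given where it changes a call. Alternatives were other scaling, background correction, constant, filter, probe rule, side, array set and embryos left out. Leaving out the right sides of embryos 3 and 4 was chosen after seeing the data.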

Additional observations from a re-analysis of the deposited data

Results flagged for a closer look

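Of 88 groups of 4 embryos, 6 held an embryo that stood apart from the other 3, by a gap beyond Dixon's critical value, where chance marks about 1 group in 20. Cdk6 at E10.5 stood at 301 in embryo 2 against 486 to 506 in the others, and Ccne1 in the same embryo at 451 against 674 to 717. E2f2 stood at 298 in embryo 4 at E8.5 against 254 to 258, and at 486 in embryo 1 at E10.5 against 546 to 550. Tfdp1 at E12.5 stood at 231 in embryo 2 against 182 to 189, and Mki67 at 636 in embryo 1 against 720 to 736. These are back-transformed means of the log2 values of both sides, which differ slightly from the embryo levels of the text.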

How the results depend on the processing

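Of the 61 gene results that passed over the 3 stage comparisons, 0 changed direction under any alternative. The alternatives reuse the arrays that gave these results and are not separate tests. All 61 passed with the array set as a block and with the replicate block, and 60 with normexp background correction or a larger constant. Fewer passed with embryo means (53), with median scaling (40) and at a B over 2 (36), a cutoff the study used between stages. On left sides 54 passed and on right sides 28, the last holding both sets furthest apart. With the replicate block the first step held 13 rises and 4 falls, the second 6 and 21, and the net comparison 10 and 18. The shares of all named genes in that fit are not given here, so these counts have nothing to be set against. Beyond the genes named in the text the replicate block changed no call. The cutoff of a B over 2 was passed by 8 of the 40 genes in the first step, against 1352 of 19406 named genes. In the second step 11 passed it, against 1547, and in the net comparison 17, against 2964. Counts below from settings without a share of all named genes in the text cannot show a change particular to these genes.

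For E10.5 versus E8.5, the genes that rose became 5 on right sides, and the 4 that fell became 0 at a B over 2, 2 on left and 0 on right sides, and 0, 1, 1 and 2 within the left sides of embryos 1 and 2, the left sides of embryos 3 and 4, the right sides of embryos 1 and 2 and the right sides of embryos 3 and 4. The median of the G1 and S regulators was 0.409 with normexp, 0.496 with signals below 1 raised to 1, 0.122 with the mean of all probes, and 0.461, 0.205, 0.411 and 0.188 within the sets. The mitotic median was −0.0912 with signals below 1 raised to 1. Without 1 embryo, 10 to 11 genes rose and 3 to 5 fell.

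For E12.5 versus E10.5, the genes that rose became 2 with embryo means, at a B over 2 and within the left sides of embryos 1 and 2, and 0 on right sides, of all embryos or of embryos 1 and 2. Those that fell became 8 with median scaling, 9 at a B over 2 and 6 on right sides. The G1 and S median was −0.19 with the mean of all probes and −0.41 for the right-side set of embryos 1 and 2. The mitotic median was −0.323 with median scaling, −0.564 with normexp, −0.774 with signals below 1 raised to 1, −0.506 with Ccna2 counted as a G1 and S regulator, −0.536 without the right sides of embryos 3 and 4, and −0.532, −0.689 and −0.111 within the left sides of embryos 1 and 2 and the right sides of embryos 1 and 2 and of 3 and 4. Without 1 embryo it ran from −0.548 to −0.276, and 3 to 5 genes rose and 14 to 19 fell.

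For E12.5 versus E8.5, 9 genes fell at a B over 2 or on right sides. The mitotic median was −0.534 with normexp, −0.804 with signals below 1 raised to 1, −0.302 with the mean of all probes, −0.545 and −0.287 for the right-side sets of embryos 1 and 2 and of embryos 3 and 4, and −0.566 to −0.415 without 1 embryo. Between sides, which there coincide with array sets, 15 genes passed in embryos 1 and 2 alone and 23 in embryos 3 and 4 alone, against 13.7% and 28.4% of all named genes. The causes of these shifts were not tested. Signal over background limits 9 of the 40 genes, which were not above background on all arrays of any stage.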
